A study of Mus musculus with 16 samples.

Results

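The epithelium of the mouse submandibular gland, a major salivary gland under the lower jaw, was compared with its mesenchyme at embryonic day 13. The 8 libraries used were those whose titles name submandibular epithelium (4 libraries) or submandibular mesenchyme (4 libraries), of 16 libraries in all, and the comparison covered every gene with enough counts to be tested. The other 8 libraries came from the epithelium (4) and mesenchyme (4) of the parotid gland at the same age. They were used for a test of where the submandibular layers differed from the parotid ones. They also entered the shared fit, and so the filter on low counts, the scaling and the estimate of spread behind every submandibular call. All animals were wild-type mice of the outbred ICR strain, with no treatment given in the labels, and total RNA was sequenced in bulk. Each group's 4 samples are described as biological replicates taken independently. The labels do not say how many embryos went into a sample or how the layers were parted, and the design text speaks of glands kept in culture for 6 days while the titles give embryonic day 13. Whether tissue was cultured before RNA was taken cannot be told from the labels.

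The submandibular gland grows by branching: an epithelial bud pushes into condensed mesenchyme, clefts split the bud, and end buds and ducts form. The mesenchyme is the source of growth factors, among them FGF10, that the epithelium needs to grow, and it also holds the vessels, nerves, ganglion and early muscle of the region. The epithelium sends signals of its own back, and a basement membrane made by both layers lies between them.

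Summed gene counts ranged between 19090077 and 27646844 in epithelium and between 16912258 and 18583164 in mesenchyme. Pearson correlations of log2 CPM (counts per 1000000 counts of the library, TMM-scaled) were 0.977 to 0.985 among the epithelial libraries and 0.978 to 0.984 among the mesenchymal ones, against 0.793 to 0.830 between the layers. The first principal component held 86.4% of the variance and parted the layers. On the second, which held 3.68%, epithelial replicate 3 stood apart from the other epithelial libraries, and mesenchymal replicate 4 lay farthest from the other mesenchymal ones. Leaving out any 1 library gave 11460 to 11770 calls, against 12186 with all (11770 without epithelial replicate 3 and 11716 without mesenchymal replicate 4). Transcripts of the sex chromosomes differed among libraries of one layer: Ddx3y, on the Y chromosome, had 80.6, 143, 0.0530 and 136 CPM in epithelium and 1.53, 184, 0 and 0 CPM in mesenchyme, and none of 5 such genes was called between the layers by edgeR, DESeq2 or limma-voom (0 at an unadjusted p under 0.05 in edgeR). Without mesenchymal replicate 2, 4 of the 5 were called higher in epithelium. The part of embryo sex in the results below was not tested.

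Of 18191 genes tested, 12186 (67.0%) were called, with a Benjamini-Hochberg adjusted p under 0.05 in edgeR's quasi-likelihood test. Of these, 6063 (33.3% of all genes tested) were higher and 6123 (33.7%) were lower in epithelium. Genes that differed by at least 2-fold were 3053 higher (16.8%) and 3994 lower (22.0%). The imbalance was wider among larger differences: 515 genes were higher and 1153 lower by at least 16-fold, and 151 were higher and 252 lower by at least 128-fold. The median log2 fold change of all genes was 0.01, and the median of its absolute value was 0.77. All 4 epithelial libraries lay above all 4 mesenchymal ones for 5677 genes (31.2%), and below them for 5716 (31.4%). Calls were made for 72.2% of 14711 protein-coding genes, against 48.3% of 1560 long noncoding genes. Pseudogenes were called higher in 375 of 919 cases and lower in 73, and near-identical copies of expressed genes, to which reads can be assigned wrongly, are common among them.

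**Figure D1:**
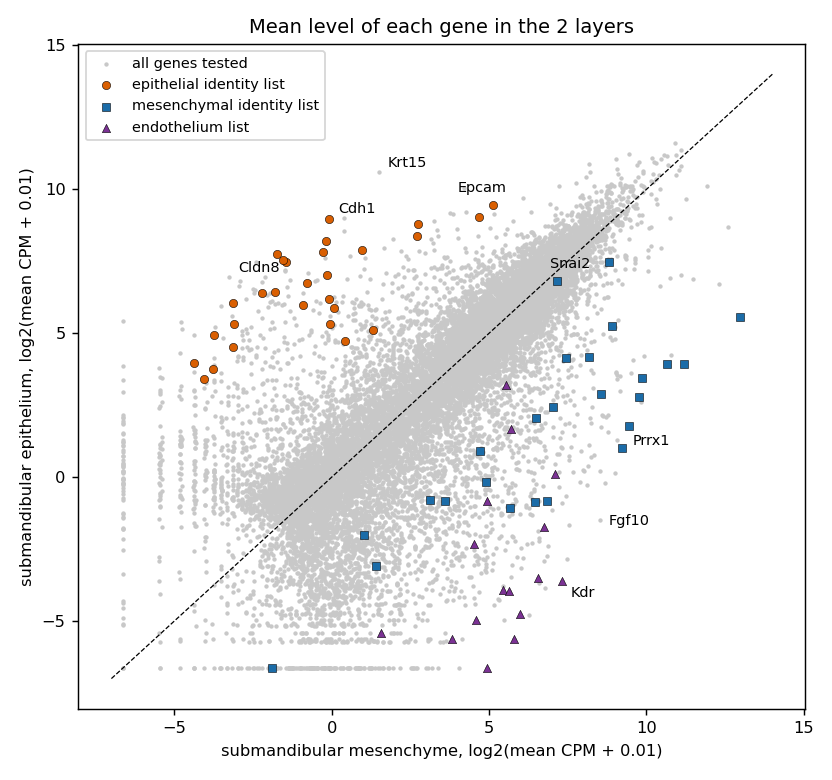
Mean level of each of 18191 genes in submandibular epithelium (vertical axis) against submandibular mesenchyme (horizontal axis), both as log2 of mean CPM plus 0.01 over 4 libraries, with the line of equal levels dashed. The 28 genes of the epithelial list lie above the line, and the 25 mesenchymal and 16 endothelial genes lie below it.

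Genes were ranked among those with at least 10 CPM in the higher layer and no overlap between the layers. The 12 with the largest differences in favour of epithelium had little or no signal in mesenchyme. Gabrp, a subunit of the GABA-A receptor found in epithelia, had 54.6, 36.5, 37.4 and 43.0 CPM in the 4 epithelial libraries and no count in the 4 mesenchymal ones, which made it at least 1124-fold higher when 3 counts are allowed over the mesenchymal group. Agr2, a protein disulfide isomerase of secretory cells, had 11.9, 10.5, 8.16 and 10.5 CPM in epithelium and no count in mesenchyme, and was at least 269-fold higher. The unannotated transcript Gm9860 was likewise at 0 in every mesenchymal library. Krt4, a keratin of the lining of the mouth and oesophagus, had 4161 counts over the epithelial libraries and 2 over the mesenchymal ones, a CPM ratio of 1629.8 with a 95% counting interval of 451 to 13462. Such bounds and intervals cover counting error only.

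Krt5, the keratin of basal cells, had 85.9, 74.2, 223 and 67.0 CPM in epithelial libraries, against 0, 0, 0.0516 and 0.435 CPM in mesenchymal ones (log2 fold change 9.84 ± 1.00 (SE), adjusted p = 7.02e-07). Epithelial replicate 3 was the highest and replicate 4 the lowest. Cldn8, a claudin of tight junctions, had 126, 134, 126 and 106 CPM, against 0.0510, 0, 0.0516 and 0.272 CPM in mesenchyme (log2 fold change 10.32 ± 0.45 (SE), adjusted p = 1.66e-11). The others among the 12 largest were Fgfbp1, a carrier of secreted FGFs, Ehf, an epithelial ETS factor, the transmembrane protease Tmprss2, the carbonyl reductase Cbr2, the dual oxidase maturation factor Duoxa1 and the transcript BC006965. Their means in epithelium were 35.5, 217, 13.9, 101, 61.0 and 177 CPM in that order, and in mesenchyme each was below 1 CPM.

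The largest differences in favour of mesenchyme, ranked by the same rule, included genes of endothelium and muscle. Robo4, a guidance receptor of endothelium, had no count in epithelium and 27.9, 29.2, 27.3 and 38.8 CPM in mesenchyme, so that it was at least 1011-fold lower in epithelium. Kdr, the main VEGF receptor, had 0.180, 0, 0 and 0.110 CPM in epithelium and 135, 149.6, 159 and 194 CPM in mesenchyme (log2 fold change -10.85 ± 0.58 (SE), adjusted p = 2.92e-10). Emcn and Tie1, also endothelial, had 1 and 3 counts in all over the epithelial libraries and 4291 and 4894 over the mesenchymal ones. Myog, a factor of muscle differentiation, had 29.3, 47.0, 71.0 and 31.2 CPM in the mesenchymal libraries and 2 counts in all in epithelium. Corin, a membrane protease, Kcne4, a potassium channel subunit, Slitrk1, a neuronal adhesion receptor, and Klhl4 averaged 109.9, 177, 95.3 and 77.0 CPM in mesenchyme in that order, and each was below 1 CPM in epithelium. The unannotated transcript Gm37644 and P2ry10b, a G protein-coupled receptor, had no count in epithelium.

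Marker lists were read for the level of each layer's genes in the other. All 28 epithelial identity genes were higher in epithelium, with a median log2 fold change of 7.57 against 0.01 over all genes. Their summed level was 4294 to 5089 CPM in epithelial libraries and 81.4 to 107 CPM in mesenchymal ones, which is 1.87% of the epithelial mean. All 25 mesenchymal identity genes were lower in epithelium (median log2 fold change -5.06), with summed levels of 299.8 to 684 CPM in epithelium and 16067 to 18316 CPM in mesenchyme, so that epithelium held 2.79% of the mesenchymal mean. As the libraries are bulk tissue, a smaller number of cells of a type and less RNA per cell cannot be told apart, here and in all results below.

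The 16 endothelial markers were all lower in epithelium, with sums of 13.1 to 18.3 CPM in epithelium and 799.9 to 1130.4 CPM in mesenchyme. Cdh5, which encodes the cadherin of endothelial junctions, had 0, 0.0403, 0.0530 and 0.220 CPM in epithelium and 49.3, 95.6, 106 and 125 CPM in mesenchyme. All 13 macrophage and leukocyte markers were also lower, with a summed level of 8.97 ± 4.50 CPM in epithelium, against 89.4 ± 17.9 CPM in mesenchyme; Csf1r, the receptor that macrophages need to survive, averaged 1.18 ± 0.727 CPM in epithelium and 12.01 ± 2.42 CPM in mesenchyme (SD, n = 4 each). All 9 erythroid genes tested were lower, and the epithelial libraries differed among themselves. Hbb-y, an embryonic globin, had 414, 1.29, 21.7 and 85.4 CPM in the epithelial libraries, highest in replicate 1, and 2047, 2033, 2511 and 2146 CPM in the mesenchymal ones. Some globin genes are near-identical copies, and reads may be divided wrongly among those.

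Of 13 neuronal markers, 10 were lower in epithelium, and Prph, Th and Chat were not called. Tubb3, neuronal tubulin, averaged 0.496 ± 0.808 CPM in epithelium and 17.9 ± 16.7 CPM in mesenchyme. Of 12 skeletal muscle genes, 11 were lower; the one not called was Myh3, an embryonic myosin, with 17.2 ± 7.20 CPM in epithelium and 19.7 ± 8.28 CPM in mesenchyme. The cardiac actin gene Actc1, also used by early skeletal muscle, averaged 0.206 ± 0.179 CPM in epithelium and 94.98 ± 35.2 CPM in mesenchyme. Lists for glia, cartilage and bone were split, and some of their genes are also known from gland epithelium. Of 11 Schwann cell lineage genes 6 were lower in epithelium, among them Cdh19, Foxd3 and Fabp7, while 4 were higher: Sox10, Erbb3, Mbp and Ngfr. Of 10 cartilage genes, Acan and Hapln1 were among 5 lower genes, while Col2a1, Col9a1, Col9a3 and Sox9 were higher. Col2a1, the type II collagen chain, had 390.2, 487, 527 and 917 CPM in epithelium, against 11.9, 5.34, 8.61 and 27.8 CPM in mesenchyme (log2 fold change 5.44 ± 0.55 (SE), adjusted p = 6.60e-07). Runx2 and Alpl, both known from bone, were higher in epithelium, and Sp7, Sparc and Dlx5 were lower. Smooth muscle and pericyte genes were mostly lower (6 of 10), for example Abcc9 at 0.125 ± 0.143 CPM in epithelium and 29.1 ± 2.90 CPM in mesenchyme, with Rgs5 as the one higher.

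Of 18 genes of the switch between epithelial and mesenchymal states, 9 were higher and 9 lower in epithelium. E-cadherin (Cdh1) had 364, 465, 599.8 and 583 CPM in epithelium and 0.867, 0.549, 1.34 and 0.979 CPM in mesenchyme, a log2 fold change of 9.07 ± 0.76 (SE) with an adjusted p of 9.15e-08. N-cadherin (Cdh2) had 3.05, 4.03, 6.62 and 2.89 CPM in epithelium and 53.3, 71.3, 81.8 and 153 CPM in mesenchyme (log2 fold change -4.46 ± 0.34 (SE), adjusted p = 1.13e-08). Neither gene overlapped between the layers. The factors that hold epithelial genes on, Grhl1, Grhl2, Grhl3, Ovol1 and Ovol2, and the epithelial splicing regulators Esrp1 and Esrp2 were all higher in epithelium, with log2 fold changes of 6.90 to 8.19. The repressors Zeb1, Zeb2, Snai1, Twist1 and Twist2 were lower (log2 fold changes of -7.89 for Twist1 to -3.93 for Twist2). Snai2, a repressor of the same class, differed far less: it had 95.01, 122, 117 and 121 CPM in epithelium and 123, 153, 126 and 166 CPM in mesenchyme (log2 fold change -0.32 ± 0.11 (SE), adjusted p = 0.0173). The layers did not overlap, but the highest epithelial and the lowest mesenchymal library differed by less than 1 CPM. Without mesenchymal replicate 4 Snai2 was not called (adjusted p = 0.0528). Cdh11, a mesenchymal cadherin, by comparison had 10.9 ± 10.7 CPM in epithelium and 924 ± 39.7 CPM in mesenchyme (SD, n = 4 each, as in all means ± SD below). Rbfox2, a splicing factor of mesenchymal cells, was lower (log2 fold change -0.39), and Rbm47, an RNA-binding protein, was higher (log2 fold change 0.45), both under 2-fold. The call of Rbm47 was lost without any single library but mesenchymal replicate 4 (edgeR adjusted p of 0.0518 to 0.153).

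MicroRNAs of the miR-200 family and miR-205 repress Zeb1 and Zeb2, and the genes that hold their hairpins were therefore read. RefSeq (build GRCm38.p6) lists 1005 mouse hairpins, and 45 of them lay within 36 genes that were called with a log2 fold change of at least 3 in size and at least 5 CPM in the higher layer: 13 hairpins in 11 genes higher in epithelium, and 32 in 25 genes lower. The genes named here were picked from these after their values were seen. Over all 18191 genes tested, with no cut on CPM, 793 were higher and 1726 lower by at least 8-fold, a log2 fold change of 3. Counts are of the gene that spans the hairpin and not of the mature miRNA, and the library kit does not mark strand. The mature sequences are shown because the families are defined by their seeds, bases 2 to 8, given in capitals.
mmu-miR-200b-3p: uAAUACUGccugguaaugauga
mmu-miR-429-3p: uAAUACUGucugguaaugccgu
mmu-miR-200a-3p: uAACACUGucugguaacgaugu
mmu-miR-205-5p: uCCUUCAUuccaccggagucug
mmu-miR-199a-3p: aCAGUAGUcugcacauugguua
mmu-miR-214-3p: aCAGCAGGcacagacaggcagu

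The hairpins of miR-200b, miR-200a and miR-429 lie next to each other on chromosome 4 (mature arms at chr4:156055685-156055706, chr4:156054911-156054932 and chr4:156053916-156053937, minus strand), inside Ttll10. The seeds of miR-200b-3p and miR-429-3p are the same, and that of miR-200a-3p differs from them. Ttll10 had 9.95, 10.3, 6.57 and 11.7 CPM in epithelium and 0, 0, 0.103 and 0.326 CPM in mesenchyme (log2 fold change 6.46 ± 0.56 (SE), adjusted p = 2.47e-08). Mir205hg, the noncoding host of miR-205 on chromosome 1 (chr1:193507503-193507524, minus strand), had 81.9, 92.4, 98.4 and 62.7 CPM in epithelium, against 0.204, 0, 0.155 and 0.326 CPM in mesenchyme (log2 fold change 8.91 ± 0.57 (SE), adjusted p = 1.89e-09). In the other direction, Dnm3os holds the hairpins of miR-199a-2 and miR-214 on chromosome 1 (chr1:162217883-162217904 and chr1:162223438-162223459, plus strand). It had 0.610, 0.685, 1.85 and 0.403 CPM in epithelium and 290.1, 262, 208 and 193 CPM in mesenchyme (log2 fold change -8.16 ± 0.48 (SE), adjusted p = 9.75e-10). Dnm3os runs antisense to Dnm3, which was also lower in epithelium (3.35 ± 0.804 CPM, against 25.8 ± 3.27 CPM in mesenchyme), and reads of the overlapping parts cannot be told apart without strand.

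ZEB and SNAI factors are known to bind the E-box CAGGTG, and promoters from RefSeq (300 bases, 250 before to 50 after the gene start) were searched for it on both strands. The match in the reverse direction reads CACCTG. It was 1 of 22 short motifs counted, and was singled out after the results were seen, so the shares are a description. Of 331 genes higher in epithelium by at least 16-fold that had a promoter in the table, 42.0% held the E-box, against 17.9% of 731 genes lower by at least 16-fold, 21.6% of 12252 genes tested and 22.6% of all 27025 genes with a promoter. In the epithelial identity list 12 of 14 genes with a promoter in the table held it, and in the mesenchymal identity list 1 of 14 did (Snai1). A gene was taken to hold a motif if any of its promoters did. The general E-box form CANNTG, of which CAGGTG is a special case, was the more common. It was held by 82.2% of the genes higher in epithelium, 73.7% of those lower and 68.3% of genes tested. CAGCTG, another form within CANNTG, was held by 21.1% of the genes higher in epithelium, 23.0% of those lower and 18.5% of genes tested. The other motifs, named for the factors known to bind them, were AACCNGTT of grainyhead factors with the narrower AACCGGTT, GGAAGT of ETS factors with the narrower ACCGGAAGT, and TGTTTAC of forkhead factors. For TEAD factors GGAATG was searched, for TWIST factors CATNTG, which also falls within CANNTG, and TAATTA for homeobox factors. For POU factors TTTGCAT was searched, GACATGT and CATGNNNNNCATG for p63, and ACAAAG for SOX factors. The MYC site CACGTG also falls within CANNTG, and CTTTGA is known from TCF factors. CCCGCC and GGGCGGG, which overlap on opposite strands, are bound by SP and KLF factors, and the rest were TATAAA of core promoters, the AP-1 site TGANTCA and the NF-Y site CCAATCA. Of these, TGANTCA was held by 12.4% of the genes higher in epithelium, 9.71% of those lower and 6.3% of genes tested. AACCNGTT was held by 4.53%, 1.37% and 2.22% in that order. Others leaned the other way, for example TGTTTAC (2.42% of the genes higher and 4.38% of those lower) and GGAATG (16.9% and 20.2%).

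Promoters of 3 epithelial genes with several matches are shown with the E-boxes in capitals, each read along the gene's own strand. Elf5 (an ETS factor of gland epithelium) lies on the plus strand at chr2:103411848-103412147, Spint2 (an inhibitor of membrane serine proteases) on the minus strand at chr7:29281928-29282227, and Cldn4 (a claudin) on the minus strand at chr5:134946885-134947184. A match is a description of the letters and not of a bound factor.
Elf5: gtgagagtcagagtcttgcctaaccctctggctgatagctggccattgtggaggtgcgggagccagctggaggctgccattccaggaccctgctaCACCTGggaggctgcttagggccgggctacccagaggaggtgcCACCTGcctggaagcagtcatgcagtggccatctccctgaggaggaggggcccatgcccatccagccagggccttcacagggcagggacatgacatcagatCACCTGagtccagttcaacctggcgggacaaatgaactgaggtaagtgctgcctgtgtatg
Spint2: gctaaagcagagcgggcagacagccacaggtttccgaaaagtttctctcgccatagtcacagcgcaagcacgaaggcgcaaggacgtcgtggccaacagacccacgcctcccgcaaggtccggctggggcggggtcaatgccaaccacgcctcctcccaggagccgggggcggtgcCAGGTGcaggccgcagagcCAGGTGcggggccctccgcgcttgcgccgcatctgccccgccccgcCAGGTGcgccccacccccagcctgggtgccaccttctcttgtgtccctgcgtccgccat
Cldn4: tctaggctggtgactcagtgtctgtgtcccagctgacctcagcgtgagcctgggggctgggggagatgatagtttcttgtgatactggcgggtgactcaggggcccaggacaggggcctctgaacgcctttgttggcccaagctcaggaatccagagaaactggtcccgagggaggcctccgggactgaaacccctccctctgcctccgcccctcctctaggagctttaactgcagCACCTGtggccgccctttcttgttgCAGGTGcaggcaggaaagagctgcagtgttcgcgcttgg
Elf5 had 44.1, 43.1, 44.4 and 29.4 CPM in epithelium and 0.0510, 0.0499, 0.103 and 0.218 CPM in mesenchyme. Spint2 had 288, 313, 369 and 376 CPM in epithelium, against 4.39, 4.74, 7.22 and 9.68 CPM in mesenchyme, and Cldn4 had 132, 201, 109 and 276 CPM in epithelium and 0.408, 0.150, 0.876 and 0 CPM in mesenchyme. In each of these genes every epithelial library lay above every mesenchymal one.

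Desmosome and tight junction genes were higher in epithelium, with 1 exception. All 12 desmosome genes tested rose (median log2 fold change 6.07), and 21 of 22 genes of tight junctions and apical polarity did. Perp, a membrane protein that desmosomes need, had 521, 504, 559 and 470.3 CPM in epithelium and 1.27, 0.150, 3.35 and 0.381 CPM in mesenchyme (log2 fold change 8.63 ± 0.67 (SE), adjusted p = 3.60e-08). Plakophilin 3 (Pkp3) and desmocollin 2 (Dsc2) averaged 60.01 ± 10.5 and 138 ± 27.4 CPM in epithelium and 0.233 ± 0.198 and 0.589 ± 0.283 CPM in mesenchyme (SD, n = 4 each). Jup, plakoglobin, which serves both desmosomes and adherens junctions, differed least (238 CPM in epithelium and 94.7 CPM in mesenchyme). The polarity protein Crb3 had 1083 counts over the epithelial libraries and 1 over the mesenchymal ones, and the tight junction genes Ocln and Cgn were higher, with log2 fold changes of 6.42 and 6.44. Tjp1, whose product also sits in mesenchymal and endothelial contacts, was the gene not called, at 106 ± 19.8 CPM in epithelium and 114 ± 14.8 CPM in mesenchyme.

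By family, 11 of 13 claudins were higher and 2 lower. The lower ones were Cldn5, the claudin of endothelium (0.0224 CPM in epithelium and 24.0 CPM in mesenchyme), and Cldn34c1. Of 20 keratin-named genes 17 were higher and 2 lower (Krt24 and Krt222); Krt10 was not called, with 27.5 ± 1.40 CPM in epithelium and 25.9 ± 1.88 CPM in mesenchyme. Classical cadherins went the other way: of 10 tested, only Cdh1 and Cdh3 (P-cadherin, 147 CPM in epithelium and 6.15 CPM in mesenchyme) were higher, and 8 were lower, Cdh11 and Cdh6 among them. Protocadherins, which act in homophilic adhesion of neurons and other cells, were lower in 46 of 58 cases and higher in 2, Pcdh8 among them. Pcdh7 was not called in the main edgeR fit. It was higher in epithelium in edgeR with the submandibular libraries alone (log2 fold change 0.44, adjusted p = 0.0493). All 9 transmembrane serine proteases of the Tmprss family that were tested were higher, for example Tmprss11b at 30.8 ± 9.46 CPM in epithelium and 0.128 ± 0.195 CPM in mesenchyme, as were their inhibitors Spint1 and Spint2.

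**Figure D2:**
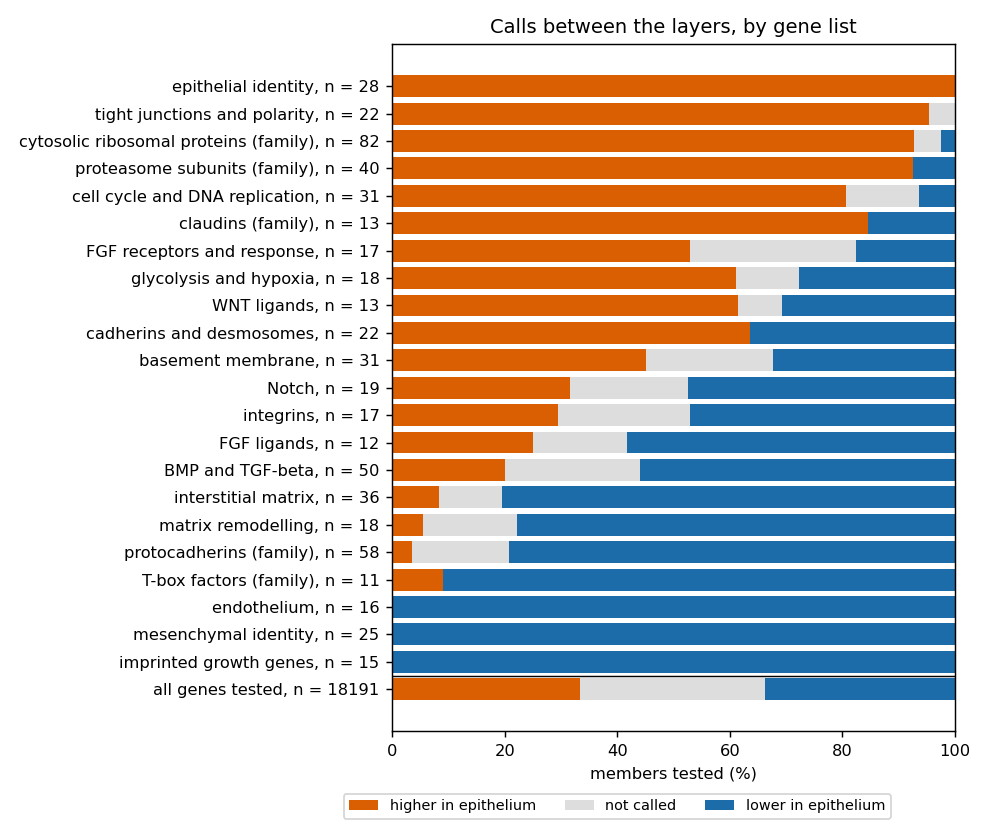
Share of the tested members of each list or family (percent, horizontal axis) that was higher in epithelium, not called, or lower in epithelium, with the number of members tested beside each name and all 18191 genes in the lowest bar. All members of the epithelial list were higher, all those of the mesenchymal, endothelial and imprinted lists were lower, and 33.3% of all genes were higher and 33.7% lower.

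The basement membrane was divided between the layers chain by chain. Laminins are trimers of an alpha, a beta and a gamma chain, and of 11 chains tested 5 were higher in epithelium, 5 were lower and Lama1 was not called. Lama5, the alpha chain that branching of this gland is known to need, had 137, 159, 179 and 304 CPM in epithelium and 1.89, 1.10, 3.71 and 1.63 CPM in mesenchyme (log2 fold change 6.54 ± 0.40 (SE), adjusted p = 1.40e-09). Lama3 and Lamb3, chains of a laminin that anchors basal epithelial cells, were both higher, with log2 fold changes of 6.95 and 3.40. Lama2 and Lama4, the alpha chains of muscle and vessels, were lower: Lama4 had 3.09, 7.97, 2.91 and 11.8 CPM in epithelium and 202, 172, 208 and 181 CPM in mesenchyme (log2 fold change -4.87 ± 0.37 (SE), adjusted p = 1.78e-08). For the shared chains, Lamb1 was lower in epithelium (264 ± 50.2 CPM, against 1142 ± 129.8 CPM in mesenchyme) and Lamc1 was higher with overlapping libraries (210.03, 286, 304 and 488 CPM in epithelium and 188, 189.97, 196 and 223 CPM in mesenchyme). Lama1 had 56.8 ± 20.7 CPM in epithelium and 72.6 ± 11.97 CPM in mesenchyme. Per kilobase of exon the order of the alpha chains in epithelium was Lama5 at 17.1, Lama1 at 5.87, Lama3 at 2.15, Lama4 at 0.533 and Lama2 at 0.0473 CPM per kilobase, and in mesenchyme Lama4 at 15.8, Lama1 at 7.50, Lama2 at 3.14, Lama5 at 0.183 and Lama3 at 0.0170 CPM per kilobase.

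The nidogens, which link laminin to type IV collagen, were far lower in epithelium. Nid1 had 5.92, 10.6, 11.1 and 15.3 CPM in epithelium and 529, 562, 538 and 525 CPM in mesenchyme (log2 fold change -5.65 ± 0.26 (SE), adjusted p = 3.33e-11), and Nid2 had 10.3, 6.32, 10.3 and 21.9 CPM in epithelium, against 711, 779, 794 and 632 CPM in mesenchyme (log2 fold change -5.90 ± 0.35 (SE), adjusted p = 9.17e-10). The main type IV collagen chains were found in both layers: Col4a1 had 468 ± 179.5 CPM in epithelium and 589 ± 94.7 CPM in mesenchyme, Col4a2 had 179.9 ± 76.6 CPM in epithelium and 240.2 ± 28.9 CPM in mesenchyme, and neither was called. The chains Col4a5 and Col4a6 were higher in epithelium, Col4a6 at 42.3, 49.9, 51.8 and 89.8 CPM, against 5.61, 4.59, 4.54 and 5.82 CPM in mesenchyme. Col17a1 and Col7a1, collagens of the hemidesmosome and its anchoring fibrils, were higher (log2 fold changes of 5.11 and 2.44). The proteoglycans Hspg2 and Col18a1 were not called, while Agrn, agrin, was higher (log2 fold change 1.53). These calls depended on the libraries and the fit: without epithelial replicate 4 Col4a1, Col4a2 and Hspg2 were lower in epithelium (log2 fold changes of -0.68, -0.80 and -0.87, edgeR adjusted p = 0.00527, 0.00265 and 0.00784). Of the Fraser complex, which holds epithelium to the tissue beneath, Fras1 and Frem2 were higher in epithelium (63.4 and 85.9 CPM, against 8.88 and 2.18 CPM in mesenchyme), and Frem1 was lower (0.295 CPM, against 16.2 CPM in mesenchyme). Npnt, nephronectin, a ligand of integrin alpha 8 beta 1, was higher in epithelium (log2 fold change 3.96), and Itga8, the alpha 8 chain, was lower (log2 fold change -0.97).

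Integrin chains, the receptors for this matrix, were also divided. Of 17 listed chains tested, 5 were higher and 8 lower (76.5% called, against 67.0% of all genes). Of all 28 genes named as integrin chains, 5 were higher and 14 lower (67.9% called), so the share called was near that of all genes. Itgb4, whose product pairs only with the alpha 6 chain in hemidesmosomes, had 45.1, 58.5, 77.0 and 88.3 CPM in epithelium and 1.43, 0.898, 1.495 and 1.197 CPM in mesenchyme (log2 fold change 5.74 ± 0.33 (SE), adjusted p = 2.65e-10). Itga3 and Itga6, receptors for laminin, were higher (log2 fold changes of 4.52 and 1.43), and so were Itga9 and Itgb6 (log2 fold changes of 2.26 and 2.55). Itga5, the fibronectin receptor chain, was lower (31.4 ± 6.96 CPM in epithelium and 201 ± 8.19 CPM in mesenchyme), as were Itga1, Itga7, Itga11, Itgb3 and Itgb5. Itgb1, the beta chain common to most of these receptors, had 719.7 ± 33.6 CPM in epithelium and 808 ± 36.1 CPM in mesenchyme. It was not called in the main edgeR fit, but was lower in epithelium in DESeq2 (log2 fold change -0.22, adjusted p = 0.0194). In edgeR it was also lower under each of 3 other scalings (0.00386 to 0.0479) and under both other filters (0.0215 and 0.0352). Itga2, Itga4 and Itgav were not called either.

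**Figure D3:**
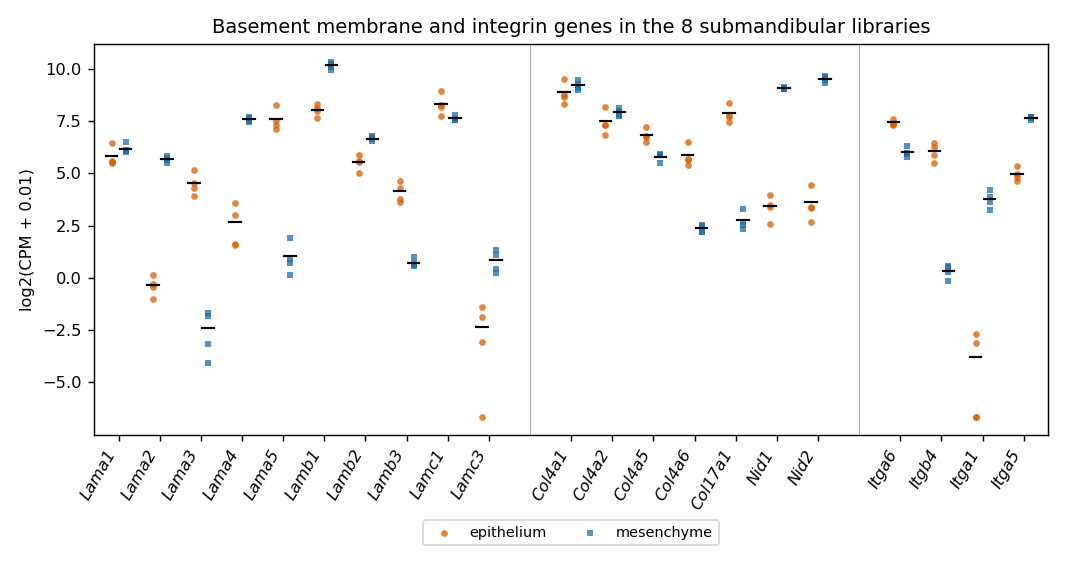
Level of basement membrane and integrin genes as log2 of CPM plus 0.01 (vertical axis) in each of the 4 epithelial libraries (circles) and the 4 mesenchymal libraries (squares), with the log2 of the mean CPM plus 0.01 over the 4 libraries as a bar. Lama5, Lama3, Col17a1 and Itgb4 lie higher in epithelium, Lama2, Lama4, Nid1, Nid2 and Itga1 lie higher in mesenchyme, and Lama1, Col4a1 and Col4a2 overlap.

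Genes of the interstitial matrix were mostly lower in epithelium, 29 of 36, with 3 higher (median log2 fold change -4.07). Summed over the 36 genes, epithelium held 8.7% of the mesenchymal level. Col3a1, a fibrillar collagen, had 4.85, 2.86, 143 and 36.6 CPM in epithelium and 7948, 8652, 8622 and 6585 CPM in mesenchyme (log2 fold change -7.42 ± 1.28 (SE), adjusted p = 0.000184). Epithelial replicate 3 held the most of its layer, and the layers did not overlap. Of 15 interstitial collagen chains 12 were lower, Col6a1 most among them (log2 fold change -7.85). Col14a1, a collagen that coats fibrils, was the 1 higher chain: it had 177, 221, 205 and 335 CPM in epithelium, against 3.88, 4.59, 4.64 and 5.06 CPM in mesenchyme (log2 fold change 5.69 ± 0.22 (SE), adjusted p = 3.67e-12). Fibronectin (Fn1), which is known to gather in the clefts of this gland, had 84.0, 89.2, 132 and 90.7 CPM in epithelium and 1249.6, 1408, 1309 and 1537 CPM in mesenchyme. Tenascin C (Tnc), decorin (Dcn) and elastin (Eln) were lower (log2 fold changes of -6.44, -7.04 and -5.04) in epithelium. The small proteins Fmod, fibromodulin, and Mgp, an inhibitor of calcification, were higher in epithelium, with 4.14 and 25.03 CPM, against 0.104 and 0.363 CPM in mesenchyme.

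Of 18 genes of matrix remodelling, 14 were lower in epithelium. The inhibitors Timp1, Timp2, Timp3 and Reck were all lower (log2 fold changes of -2.5 for Timp2 to -4.22 for Reck). Among the proteases, Adamts1 averaged 18.4 ± 4.39 CPM in epithelium and 965 ± 59.3 CPM in mesenchyme, and Mmp2 and Mmp14 were lower (log2 fold changes of -0.66 and -1.2). Adamts18 was the 1 higher: it had 171, 159, 144 and 150.5 CPM in epithelium and 3.62, 5.49, 5.72 and 4.24 CPM in mesenchyme (log2 fold change 5.03 ± 0.22 (SE), adjusted p = 9.59e-12). Btbd7, a gene of cleft formation in this gland, averaged 43.9 ± 5.51 CPM in epithelium and 53.5 ± 3.57 CPM in mesenchyme. It was not called in the main edgeR fit, but was lower in epithelium in DESeq2 and limma-voom (adjusted p = 0.0143 and 0.0436). In edgeR it was also lower under each of 3 other scalings (0.00729 to 0.0279) and under both other filters (0.017 and 0.0232). Heparan sulfate genes were split, 9 higher and 9 lower of 25, close to the shares over all genes (33.3% and 33.7%). The 3-O-sulfotransferases Hs3st3a1 and Hs3st3b1, which shape the binding of FGF10 to its receptor in this gland, were both higher (11.3 and 83.7 CPM in epithelium and 2.05 and 20.8 CPM in mesenchyme). Sdc4, a syndecan, was higher (log2 fold change 3.84), and Hpse, heparanase, was lower (log2 fold change -2.80).

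FGF ligand genes lay mostly in mesenchyme, and the main receptor gene and most response genes were higher in epithelium. Fgf10, without which salivary glands do not form, had 0.0359, 0.322, 0.371 and 0.659 CPM in epithelium and 377, 396, 344 and 342 CPM in mesenchyme (log2 fold change -10.03 ± 0.59 (SE), adjusted p = 1.50e-09). Fgf7, which binds the same receptor isoform, had 0.0718, 0.282, 0.212 and 0.330 CPM in epithelium and 63.5, 55.8, 53.9 and 44.7 CPM in mesenchyme (log2 fold change -7.90 ± 0.48 (SE), adjusted p = 5.38e-10). The layers lay far apart for both. Of 12 ligands tested 7 were lower, the others being Fgf2, Fgf5, Fgf12, Fgf14 and Fgf18, and 3 were higher in epithelium: Fgf1 and Fgf9 averaged 77.8 ± 18.3 and 67.7 ± 7.35 CPM in epithelium and 4.70 ± 1.29 and 1.09 ± 0.512 CPM in mesenchyme, and Fgf20 had 146 counts over the epithelial libraries and 2 over the mesenchymal ones.

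Fgfr2, which encodes the receptor of FGF10, had 261, 314, 407 and 327 CPM in epithelium and 96.7, 106, 82.2 and 94.7 CPM in mesenchyme (log2 fold change 1.78 ± 0.14 (SE), adjusted p = 9.85e-09). Gene counts do not part its epithelial and mesenchymal splice isoforms. Fgfr3 was also higher (log2 fold change 4.62), Fgfr4 was lower (log2 fold change -3.61), and Fgfr1 was not called (281 ± 75.9 CPM in epithelium and 224 ± 34.9 CPM in mesenchyme). Of 12 response genes 7 were higher and 2 lower. Etv5 and Etv4, ETS factors switched on by FGF, averaged 472 ± 117 and 167 ± 37.4 CPM in epithelium and 53.6 ± 8.08 and 35.2 ± 6.84 CPM in mesenchyme, and the phosphatase Dusp6 had 644, 793, 621 and 853 CPM in epithelium, against 133, 106, 127 and 125 CPM in mesenchyme. The feedback inhibitors Spry1 and Spry2 were higher (log2 fold changes of 1.13 and 1.39), while Spry4 was lower (log2 fold change -1.66), as was Flrt3 (log2 fold change -2.09).

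Most WNT ligands tested were higher in epithelium, 8 of 13, with a median log2 fold change of 3.76. Wnt6 had 71.2, 75.1, 123 and 51.9 CPM in epithelium and 0.204, 0.0998, 0.567 and 0.0544 CPM in mesenchyme (log2 fold change 8.40 ± 0.63 (SE), adjusted p = 1.56e-08). Wnt4, Wnt7b and Wnt10a averaged 70.1 ± 25.4, 59.4 ± 37.8 and 15.5 ± 7.27 CPM in epithelium, against 0.694 ± 0.520, 1.63 ± 0.416 and 0.158 ± 0.155 CPM in mesenchyme. Wnt5b, Wnt9b, Wnt10b and Wnt3 were also higher. Wnt2b, Wnt2, Wnt9a and Wnt11 were lower in epithelium, Wnt11 at 0.544 ± 0.145 CPM in epithelium and 16.03 ± 6.32 CPM in mesenchyme, and Wnt5a was not called. All 4 R-spondins, which strengthen WNT signals, were lower in epithelium: Rspo3 had 0.0359, 0, 0.848 and 0.0733 CPM in epithelium and 5.15, 5.14, 5.31 and 6.85 CPM in mesenchyme, and Rspo2 had 1 count in epithelium and 349 in mesenchyme. Their receptor gene Lgr5 was lower as well (3.34 ± 2.25 CPM in epithelium and 54.3 ± 48.1 CPM in mesenchyme), while Lgr4 was not called.

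Of 18 WNT receptor genes 4 were higher (Fzd3, Fzd5, Fzd6 and Fzd9) and 8 lower, among them Ror2 and Fzd1 (log2 fold changes of -3.06 and -2.20). The share of WNT receptor genes called, 66.7%, was near that of all genes (67.0%). The shared co-receptors Lrp5 and Lrp6 were not called. Secreted inhibitors were mostly lower, 5 of 9, and Sfrp2 had 13.7, 13.4, 18.4 and 13.7 CPM in epithelium and 209, 186, 239.9 and 313 CPM in mesenchyme. Sostdc1, an inhibitor of WNT and BMP, was higher (81.5 ± 21.1 CPM in epithelium and 5.86 ± 1.38 CPM in mesenchyme), as was Dkk1, which stayed near 1 CPM. WNT response genes did not point 1 way: 7 of 13 were higher and 4 lower. Axin2, the most used reporter of the canonical pathway, had 2.73, 2.82, 3.13 and 4.396 CPM in epithelium and 14.02, 16.01, 15.2 and 11.3 CPM in mesenchyme (log2 fold change -2.11 ± 0.24 (SE), adjusted p = 6.59e-07), and Lef1 was also lower. Rnf43, another target, which removes WNT receptors, had 24.9, 31.05, 32.6 and 42.3 CPM in epithelium and 0.204, 0.599, 0.412 and 1.31 CPM in mesenchyme (log2 fold change 5.70 ± 0.33 (SE), adjusted p = 1.85e-10). Kremen1 and Znrf3 were higher (log2 fold changes of 1.93 and 1.37).

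BMP and TGF-beta ligands lay mostly in mesenchyme: of 17 tested, 13 were lower in epithelium and 4 (Bmp3, Bmp7, Tgfb1 and Tgfb2) were not called. Bmp4, which slows end bud growth in culture, had 2.19, 2.58, 4.61 and 3.63 CPM in epithelium and 17.6, 21.3, 19.7 and 45.7 CPM in mesenchyme (log2 fold change -3.01 ± 0.45 (SE), adjusted p = 1.76e-05). Bmp7, which speeds it, had 167 ± 28.5 CPM in epithelium and 161 ± 23.1 CPM in mesenchyme. Bmp2 and Gdf10 were lower (log2 fold changes of -5.08 and -4.24). Antagonists were lower in 8 of 13 cases, Chrdl1 at 0.853 ± 0.395 CPM in epithelium and 53.5 ± 17.5 CPM in mesenchyme, but Nog, noggin, was higher (9.82 ± 2.24 CPM in epithelium and 0.963 ± 0.356 CPM in mesenchyme). Of the receptors, Acvr2b was higher (log2 fold change 1.94), and Tgfbr2 and Acvrl1, the second of them an endothelial receptor, were lower (log2 fold changes of -3.13 and -5.11). Of 9 response genes of BMP and TGF-beta, 3 were higher, 3 lower and 3 not called (66.7% called, against 67.0% of all genes). Id4 and Id2, inhibitors of differentiation that answer to BMP, were higher in epithelium, while Id1 and Id3 were not called.

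Hedgehog genes leaned to the mesenchyme, 11 of 14 lower and 1 higher; among the ligands Dhh was the only one that passed the filter on low counts, at 0.0463 CPM in epithelium and 0.866 CPM in mesenchyme. The co-receptor Gas1 had 71.3, 75.9, 88.8 and 67.4 CPM in epithelium and 431, 414, 409 and 483 CPM in mesenchyme. Gli1 and Gli3 were lower (log2 fold changes of -2.58 and -1.41), and the receptor Ptch1 was the one higher (log2 fold change 0.63). In the retinoic acid pathway, 6 of 10 genes of synthesis and transport were lower in epithelium and 2 were higher, and of 3 genes of breakdown 1 was higher and 2 were not called. Aldh1a2, the enzyme that makes retinoic acid, had 0.251, 1.01, 2.81 and 1.17 CPM in epithelium and 236, 241, 218 and 439 CPM in mesenchyme (log2 fold change -7.85 ± 0.77 (SE), adjusted p = 5.56e-07). Rdh10, the step before it, was lower (log2 fold change -3.56). Dhrs3, which turns retinal back to retinol, was higher (226 ± 28.7 CPM in epithelium and 42.8 ± 9.36 CPM in mesenchyme), and so, with overlapping libraries, was the degrading enzyme Cyp26a1 (38.5, 22.03, 45.4 and 20.6 CPM in epithelium and 7.14, 7.88, 10.9 and 23.4 CPM in mesenchyme). Of 6 receptor genes of the pathway 2 were higher, 2 lower and 2 not called (66.7% called, against 67.0% of all genes). Rarb, a receptor that retinoic acid itself induces, was among the lower ones (log2 fold change -1.21).

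EGF receptors were higher in epithelium, 3 of 4. Erbb3, the neuregulin receptor, had 153, 181, 186 and 265 CPM in epithelium and 6.78, 7.58, 17.5 and 16.8 CPM in mesenchyme (log2 fold change 4.02 ± 0.48 (SE), adjusted p = 3.27e-06), and Erbb2 and Egfr were higher (log2 fold changes of 1.92 and 1.04). Ligands were split 4 and 4 of 10: Tgfa, Areg, Ereg and Btc were higher, each at no more than 4 CPM in epithelium, and Nrg1, Nrg2, Nrg3 and Hbegf were lower. Egf was not called. Ectodysplasin (Eda), which mutations show to be needed for full branching, was lower in epithelium (5.89, 5.03, 5.67 and 3.81 CPM, against 13.1, 19.5, 19.1 and 14.6 CPM in mesenchyme), while its receptor Edar and the adaptor Edaradd were higher (16.8 and 33.2 CPM in epithelium and 3.33 and 3.69 CPM in mesenchyme). In the Notch pathway the ligand Jag2 had 119, 175, 137 and 189.96 CPM in epithelium and 9.08, 5.69, 9.33 and 11.1 CPM in mesenchyme (log2 fold change 4.14 ± 0.28 (SE), adjusted p = 2.32e-09). Jag1, Notch1, Lfng and the targets Hes1 and Hey1 were also higher. Dll4, Notch4, Mfng, Heyl and Hey2, most of them used by vessels, were lower, as were all 16 endothelial markers, and the part of vessels in these 5 was not tested. Notch2 and Notch3 were not called in the main edgeR fit, but Notch2 was lower in DESeq2 and limma-voom (adjusted p = 0.0248 and 0.0372).

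Of the PDGF ligand genes, Pdgfa and Pdgfc were higher in epithelium and Pdgfb and Pdgfd lower, and both receptor genes were lower. Pdgfa had 364, 373, 456 and 348 CPM in epithelium and 7.95, 8.68, 11.1 and 12.9 CPM in mesenchyme (log2 fold change 5.24 ± 0.34 (SE), adjusted p = 2.38e-09), and Pdgfc had 269, 311, 309 and 341 CPM in epithelium and 6.27, 8.08, 11.8 and 9.19 CPM in mesenchyme (log2 fold change 5.12 ± 0.20 (SE), adjusted p = 3.67e-12). Their receptor gene Pdgfra had 0.682, 0.201, 9.86 and 2.86 CPM in epithelium, against 702, 649, 719 and 718 CPM in mesenchyme (log2 fold change -7.77 ± 0.80 (SE), adjusted p = 1.14e-06). Epithelial replicate 3 held the most Pdgfra of its layer, and still less than any mesenchymal library. Pdgfrb encodes a receptor for the products of Pdgfb and Pdgfd.

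For hepatocyte growth factor the sides were reversed. Hgf had 0.0359, 0, 0.212 and 0.366 CPM in epithelium and 19.2, 15.3, 14.2 and 12.2 CPM in mesenchyme, and its receptor Met had 34.7, 31.4, 41.3 and 34.5 CPM in epithelium and 5.66, 2.34, 6.19 and 4.24 CPM in mesenchyme (log2 fold changes -6.59 ± 0.54 (SE) and 2.94 ± 0.22 (SE)). Igf1 had 5.24, 3.22, 12.7 and 3.26 CPM in epithelium, against 877, 876, 870.1 and 1006 CPM in mesenchyme (log2 fold change -7.25 ± 0.71 (SE), adjusted p = 5.73e-07), while its receptor gene Igf1r had a log2 fold change of only -0.43. Igfbp5, a binding protein, was higher in epithelium (1188 ± 257 CPM, against 219 ± 97.9 CPM in mesenchyme), and Igfbp3, Igfbp4, Igfbp6 and Igfbp7 were lower. Kit was higher in epithelium (87.6 ± 20.1 CPM, against 26.5 ± 5.03 CPM in mesenchyme), and its ligand gene Kitl was not called. Vegfa was slightly lower (log2 fold change -0.38), Vegfc was lower (log2 fold change -4.46), and the receptor genes Kdr and Flt4 were lower together with the endothelial markers.

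The chemokine Cxcl12 had 7.47, 4.75, 16.3 and 3.48 CPM in epithelium and 594, 608, 526 and 545 CPM in mesenchyme (log2 fold change -6.18 ± 0.51 (SE), adjusted p = 6.93e-08). Its receptor gene Cxcr4 had 28.4, 23.2, 20.2 and 13.8 CPM in epithelium and 4.28, 3.39, 4.49 and 4.84 CPM in mesenchyme (log2 fold change 2.33 ± 0.33 (SE), adjusted p = 9.11e-06), so that ligand and receptor were again on opposite sides. The scavenger receptor Ackr3 was lower in epithelium (log2 fold change -1.59). Cxcl13, which draws B cells in lymphoid organs, averaged 0.102 ± 0.117 CPM in epithelium and 65.0 ± 21.6 CPM in mesenchyme, and Ccl11, which draws eosinophils, had no count in epithelium and 12.6, 6.43, 2.94 and 11.5 CPM in mesenchyme. Macrophage markers were lower in epithelium too, as given above, and their part in the chemokine differences was not tested.

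**Figure D4:**
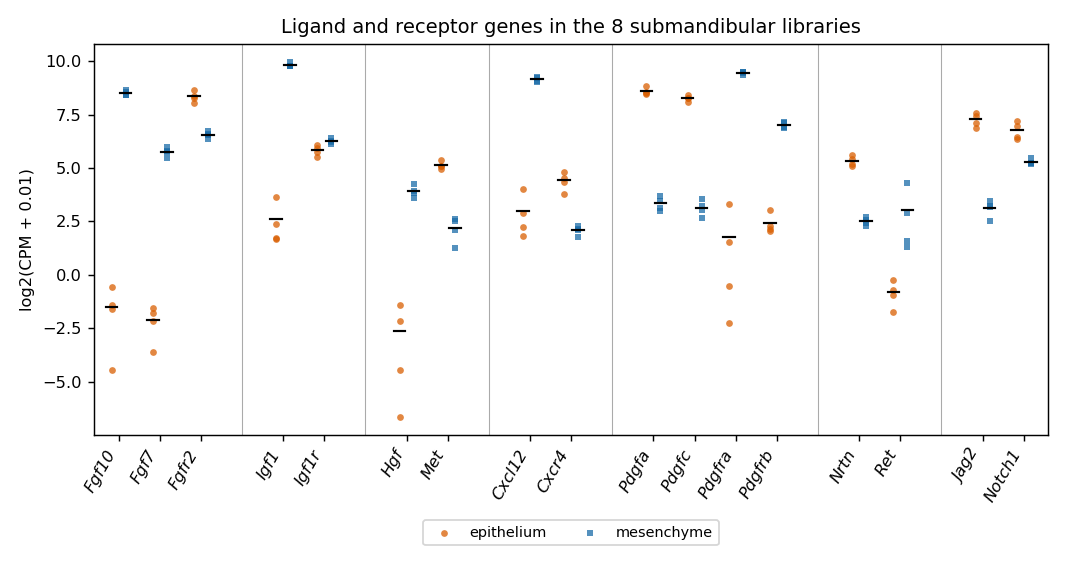
Level of ligand and receptor genes, grouped by pathway, as log2 of CPM plus 0.01 (vertical axis) in each of the 4 epithelial libraries (circles) and the 4 mesenchymal libraries (squares), with the log2 of the mean CPM plus 0.01 over the 4 libraries as a bar. Fgf10, Igf1, Hgf and Cxcl12 lie higher in mesenchyme with Fgfr2, Met and Cxcr4 higher in epithelium, and Pdgfa, Pdgfc and Nrtn lie higher in epithelium with Pdgfra, Pdgfrb and Ret higher in mesenchyme.

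Of 18 genes for factors that feed or guide nerves 9 were higher in epithelium and 7 lower (88.9% called, against 67.0% of all genes). Of 21 receptor genes 3 were higher, 11 lower and 7 not called. The share of receptor genes called, 66.7%, was near that of all genes. Some ligand genes were higher while those of their receptors were lower. Neurturin (Nrtn), which this gland's epithelium is known to use to draw parasympathetic axons, had 34.1, 48.2, 37.0 and 42.6 CPM in epithelium and 6.53, 5.29, 5.98 and 4.95 CPM in mesenchyme (log2 fold change 2.83 ± 0.17 (SE), adjusted p = 2.24e-10). Its receptor genes Gfra2 and Ret were lower in epithelium: Ret had 0.287, 0.604, 0.848 and 0.513 CPM in epithelium and 2.96, 2.49, 19.4 and 7.51 CPM in mesenchyme, and among the mesenchymal libraries replicate 3 held the most. Neurotrophin 4 (Ntf5) had 37.2 ± 5.94 CPM in epithelium and 2.03 ± 0.604 CPM in mesenchyme, and its receptor Ntrk2 had 1.62 ± 1.79 CPM in epithelium and 302 ± 23.4 CPM in mesenchyme. The semaphorins Sema3b, Sema3c and Sema3d were higher in epithelium (log2 fold changes of 5.04, 2.22 and 2.60). Their receptor Nrp2 had 0.395, 0, 1.48 and 1.54 CPM in epithelium and 392, 465, 420.4 and 373 CPM in mesenchyme (log2 fold change -8.95 ± 0.65 (SE), adjusted p = 1.91e-08), and Nrp1 and Plxnd1 were lower too. Netrin 1 (Ntn1) was higher (log2 fold change 2.54), Slit3 was lower (log2 fold change -6.94), and the SLIT receptor Robo2 was lower (log2 fold change -5.51). Gdnf and Bdnf were lower in epithelium, each averaging under 2 CPM in mesenchyme. The neuronal markers lay in mesenchyme, and their part in the receptor results was not tested.

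Of 29 transcription factors of gland and oral epithelium, 28 were higher in epithelium. Sox9, needed for end buds, had 349.9, 457, 451 and 646 CPM in epithelium and 10.7, 8.33, 8.04 and 10.7 CPM in mesenchyme (log2 fold change 5.66 ± 0.22 (SE), adjusted p = 2.72e-12). Sox10, which end buds and neural crest derivatives both use, had 102, 127, 92.3 and 208 CPM in epithelium and 1.33, 7.33, 9.02 and 13.4 CPM in mesenchyme. Foxe1 and Foxa1 were among the largest, with 91.7 ± 38.0 and 115 ± 18.5 CPM in epithelium and 0.167 ± 0.268 and 0.391 ± 0.263 CPM in mesenchyme. Foxc1, which the lacrimal gland is known to need, averaged 329.7 ± 42.5 CPM in epithelium and 10.4 ± 2.97 CPM in mesenchyme. Trp63, of basal cells, had 385, 446, 458 and 467 CPM in epithelium, against 6.12, 6.58, 7.53 and 6.74 CPM in mesenchyme. The Iroquois factors Irx1 and Irx2 were higher (log2 fold changes of 7.05 and 7.77). Pitx1, named for the pituitary and oral ectoderm, was the exception, with 199.7, 238, 301 and 256 CPM in epithelium and 389, 446, 441 and 529 CPM in mesenchyme (log2 fold change -0.86 ± 0.17 (SE), adjusted p = 0.000205).

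Of 45 factors known from facial mesenchyme, 36 were lower in epithelium. Prrx1 had 0.144, 0.0403, 6.20 and 1.58 CPM in epithelium and 601, 582, 529 and 660.1 CPM in mesenchyme (log2 fold change -8.36 ± 0.81 (SE), adjusted p = 5.25e-07). Alx4 and Gata6 averaged 0.306 ± 0.410 and 0.189 ± 0.353 CPM in epithelium and 185 ± 24.6 and 73.0 ± 9.03 CPM in mesenchyme. Barx1, Osr1 and Hic1 were also abundant in mesenchyme, at 476, 422 and 570.2 CPM, against 27.4, 4.21 and 11.4 CPM in epithelium. The 6 members that were higher in epithelium were Barx2, Dlx3, Dlx4, Pax9, Meis1 and Meis2. Barx2 and its paralog Barx1 thus lay in different layers: Barx2 had 63.6, 68.4, 63.2 and 65.3 CPM in epithelium and 0.663, 0.0499, 0.258 and 0.381 CPM in mesenchyme (log2 fold change 7.57 ± 0.42 (SE), adjusted p = 1.92e-10). Dlx3 and Dlx4 were higher (log2 fold changes of 4.44 and 4.56), while their relatives Dlx1, Dlx2 and Dlx5 were lower (log2 fold changes of -6.81, -6.54 and -5.96). Of 11 T-box factors 10 were lower, Tbx2 and Tbx18 among them, and Tbx1 was higher (log2 fold change 1.43). HOX genes were nearly silent, and of 4 tested Hoxc5 and Hoxb2 were higher in epithelium at about 1 CPM and Hoxd8 was lower.

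Progenitor genes of both parts of the epithelial tree were higher than in mesenchyme, 10 of 10 for end buds and 11 of 11 for ducts and basal cells. Krt15 was the most abundant keratin by CPM, with 1516, 1291, 2604 and 795 CPM in epithelium and 0.714, 0.0499, 5.05 and 5.44 CPM in mesenchyme (log2 fold change 9.12 ± 1.24 (SE), adjusted p = 2.15e-05); replicate 3 was highest and replicate 4 lowest in epithelium. Krt14 and Krt19 averaged 196 ± 32.6 and 87.0 ± 20.6 CPM in epithelium, against 0.852 ± 0.749 and 0.274 ± 0.287 CPM in mesenchyme. Myb and Sox2 were higher (log2 fold changes of 3.70 and 3.76). Genes of secretion were still low. Lpo, lactoperoxidase, averaged 2.63 ± 0.675 CPM in epithelium and 0.0136 ± 0.0272 CPM in mesenchyme, and the acinar factor Bhlha15 1.83 ± 0.664 CPM in epithelium and 0.281 ± 0.125 CPM in mesenchyme. Aqp5, Muc19, Smgc and Bpifa2, products or channels of the mature gland, did not pass the filter on low counts. Slc12a2, the chloride loader of saliva secretion, was already abundant, with 215, 304, 418 and 445 CPM in epithelium and 38.9, 55.2, 74.8 and 87.2 CPM in mesenchyme (log2 fold change 2.43 ± 0.25 (SE), adjusted p = 2.68e-07). Markers of stratified oral lining were higher in 9 of 11 cases, and Krt6a, whose reads may be shared with near-identical keratin genes, averaged 37.1 ± 10.04 CPM in epithelium and 0.0659 ± 0.0783 CPM in mesenchyme.

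Genes of the cell cycle were higher in epithelium by moderate amounts. All 12 genes of DNA replication rose, and 10 of 11 cyclins and mitotic kinases did, with medians of 1.07 and 1.48 on the log2 scale. Top2a had 809.99, 681, 633 and 682 CPM in epithelium and 249.7, 192, 261 and 237 CPM in mesenchyme (log2 fold change 1.58 ± 0.16 (SE), adjusted p = 2.09e-07), and Mki67 had 259.7, 216, 247 and 197 CPM in epithelium and 98.9, 80.1, 106 and 111 CPM in mesenchyme (log2 fold change 1.22 ± 0.17 (SE), adjusted p = 9.80e-06). Cdk2 and E2f1 were not called. Ccnd1, a WNT response gene in the lists, had overlapping libraries of 169, 61.9, 221 and 207 CPM in epithelium and 63.2, 17.2, 81.4 and 109 CPM in mesenchyme. It was not called in the main edgeR fit. It was higher in epithelium in DESeq2 (log2 fold change 1.22, adjusted p = 0.0466) and in edgeR with a replicate block (log2 fold change 1.34, adjusted p = 0.0297). The inhibitor Cdkn1c, which is imprinted, was the most abundant of its class: it had 346, 382, 502 and 431 CPM in epithelium and 6192, 6522, 6228 and 5965 CPM in mesenchyme (log2 fold change -3.91 ± 0.13 (SE), adjusted p = 9.27e-13).

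Of 18 genes of glycolysis and hypoxia, 11 were higher and 5 lower. Ldha, which turns pyruvate into lactate, had 1663, 1894, 2272 and 1798 CPM in epithelium and 239, 271, 308 and 349 CPM in mesenchyme (log2 fold change 2.71 ± 0.14 (SE), adjusted p = 4.13e-11). Pkm and Eno1 averaged 2389 ± 246 and 1387 ± 195 CPM in epithelium and 699.9 ± 70.0 and 269 ± 44.6 CPM in mesenchyme. Isoform pairs parted: Hk2 was higher (log2 fold change 1.13) and Hk1 lower (log2 fold change -1.44), the glucose carrier Slc2a1 was higher (log2 fold change 1.36) and Slc2a3 lower (log2 fold change -3.79), and Pfkl was higher (log2 fold change 1.58) and Pfkp lower (log2 fold change -1.66). The hypoxia targets Car9 and Vegfa were lower, and Egln3 and Bnip3 were higher. Genes of protein synthesis and turnover were mostly higher. Of 82 cytosolic ribosomal protein genes 76 were higher and 2 lower (median log2 fold change 0.94), and the lower ones were the paralogs Rps4l and Rpl39l; near-identical pseudogenes make single values uncertain. Of 40 proteasome genes 37 were higher (median log2 fold change 0.66) and 3 lower, namely the testis form Psma8, the immune form Psmb8 and the assembly factor Psmd9. Of 49 genes named for NADH dehydrogenase, 34 were higher, by smaller amounts (median log2 fold change 0.35, and 0.23 with scaling by library size alone). Of 10 mitochondrially encoded genes mt-Nd1 and mt-Nd2 were higher (log2 fold changes of 0.62 and 0.49), and mt-Co2, mt-Co3 and mt-Atp6 were near 1 CPM, where counting leaves little to compare.

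All 15 imprinted genes tested were lower in epithelium, with a median log2 fold change of -2.11. The list covers genes active on the copy from the father, such as Igf2, Mest, Peg3, Plagl1 and Dlk1, and on the copy from the mother, such as H19, Meg3, Cdkn1c and Phlda2. Mest had 103, 80.9, 180.3 and 106 CPM in epithelium and 2766, 2901, 2709.97 and 2931 CPM in mesenchyme (log2 fold change -4.59 ± 0.24 (SE), adjusted p = 1.30e-10), and Plagl1, a factor that acts on several of the others, had 99.9, 88.2, 162 and 129.9 CPM in epithelium and 1716, 1809, 1695 and 1728 CPM in mesenchyme (log2 fold change -3.86 ± 0.20 (SE), adjusted p = 5.40e-11). Igf2 and H19, which share enhancers, averaged 509.5 ± 105 and 186 ± 57.1 CPM in epithelium and 1723 ± 137 and 802 ± 48.7 CPM in mesenchyme. Grb10 differed least (log2 fold change -0.28). Immediate early genes did not move together: Fos, Fosb and Jun were lower in epithelium (log2 fold changes of -1.44, -2.08 and -1.66), Atf3 and Ier3 were higher with overlapping libraries, and Egr1, Junb and Nr4a1 were not called. Fos averaged 399.98 ± 173 CPM in epithelium and 1086 ± 140.3 CPM in mesenchyme. The part of handling in the layer differences was not tested.

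Channels and carriers gave a few large differences. Of 68 potassium channel genes 10 were higher and 38 lower. Kcnn4, the calcium-activated channel of saliva secretion, averaged 23.7 ± 8.66 CPM in epithelium and 0.684 ± 0.0800 CPM in mesenchyme. Of 244 solute carriers 70 were higher and 108 lower, against 33.3% higher and 33.7% lower among all genes. Slc15a2, a peptide carrier, had 334, 555, 255 and 345 CPM in epithelium and 2.55, 0.249, 1.44 and 0.925 CPM in mesenchyme (log2 fold change 8.16 ± 0.49 (SE), adjusted p = 1.38e-09), and Slc5a9, a sugar carrier, had no count in mesenchyme and 7.43, 6.89, 6.57 and 10 CPM in epithelium, which made it at least 202-fold higher. Receptors and ligands of the Eph family were split, 7 higher and 12 lower of 21: Epha1 averaged 47.9 ± 3.61 CPM in epithelium and 4.81 ± 1.41 CPM in mesenchyme, and Epha3 averaged 5.70 ± 9.60 CPM in epithelium and 209 ± 13.9 CPM in mesenchyme.

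The same layer contrast was available in the parotid gland, the salivary gland in front of the ear, and the difference between the glands in this contrast was tested in 1 model. It was called for 3799 genes (20.9%), 2222 with a more positive value in submandibular gland (12.2%) and 1577 with a more negative one (8.67%). Tested against a difference of 2-fold, 899 genes (4.94%) were called. Tlx1, a homeobox gene, was an example: it had 68.7, 62.3, 65.8 and 73.3 CPM in submandibular epithelium and 1.02, 1.85, 2.01 and 1.36 CPM in submandibular mesenchyme, with means of 0.0235 CPM in parotid epithelium and 0.953 CPM in parotid mesenchyme. Its layer log2 fold change was 5.43 in submandibular gland and -5.03 in parotid gland, a difference of 10.46 ± 0.63 (SE) with an adjusted p of 1.29e-08. Rxfp1, a relaxin receptor, had 70.6, 37.6, 64.8 and 48.9 CPM in submandibular epithelium and 0.306, 0.0998, 1.86 and 0.326 CPM in submandibular mesenchyme, and 0.0358 and 3.78 CPM in parotid epithelium and mesenchyme (difference 12.97 ± 0.97 (SE), adjusted p = 2.14e-07). For Areg, an EGF receptor ligand, the layers were likewise reversed, with 2.10 and 0.0265 CPM in submandibular epithelium and mesenchyme and 0.106 and 14.3 CPM in parotid epithelium and mesenchyme. Gabrp, Krt4 and Scel, a protein of the cornified envelope, were high in submandibular epithelium and had means of 1.58, 0.0238 and 0.0859 CPM in parotid epithelium.

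In the other direction, Prlr, the prolactin receptor, had 0.395, 0.322, 0.795 and 0.806 CPM in submandibular epithelium and 65.6, 71.9, 49.5 and 39.8 CPM in submandibular mesenchyme, and means of 2.02 and 0.462 CPM in parotid epithelium and mesenchyme (difference -8.80 ± 0.64 (SE), adjusted p = 1.14e-07). Kcnj12, a potassium channel, Fhod3, a formin of muscle, Gpat3, a lipid enzyme, and Acan, the cartilage proteoglycan, were others with large negative differences, of -8.89, -6.83, -6.81 and -8.73 in that order. Skeletal muscle and neuronal markers were mostly lower in submandibular epithelium (11 of 12 and 10 of 13), cartilage markers were split (4 higher and 5 lower of 10), and their part in these differences was not tested.

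**Figure D5:**
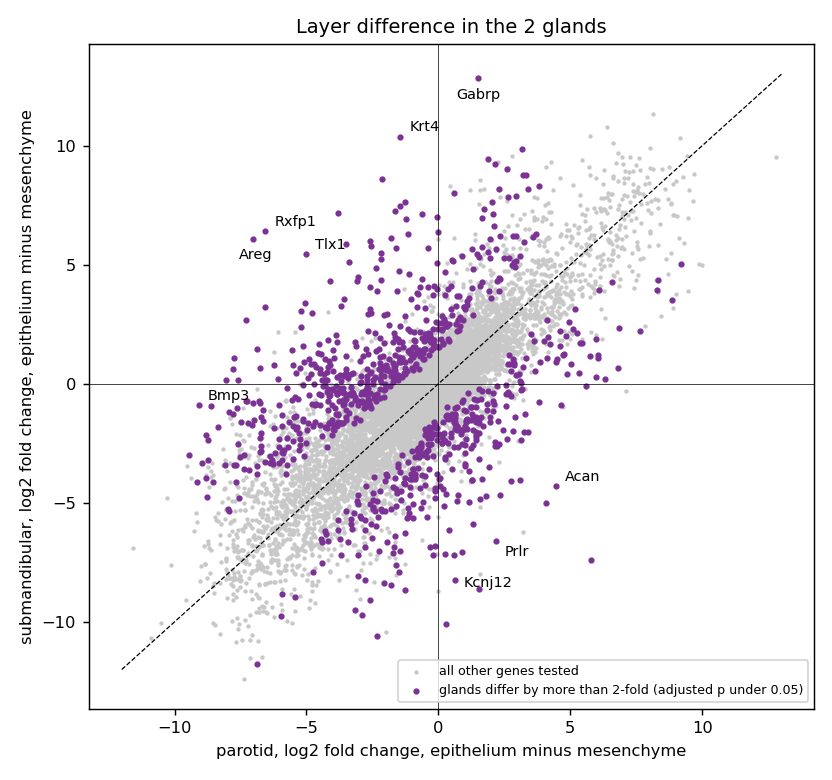
Layer log2 fold change, epithelium minus mesenchyme, of each of 18191 genes in submandibular gland (vertical axis) and parotid gland (horizontal axis), with the line of equal values dashed. The 899 genes whose 2 values differed by more than 2-fold at an adjusted p under 0.05 are dark; Rxfp1, Areg, Tlx1 and Krt4 lie at upper left and Prlr, Kcnj12 and Acan at lower right.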

How the data were processed

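Total RNA from submandibular and parotid epithelium and mesenchyme of mouse embryos (4 libraries per group) was amplified with SMART-Seq v4 and made into libraries with Nextera XT, per the labels' protocols; such libraries do not mark strand, so overlapping antisense genes cannot be told apart. Reads were aligned with STAR 2.5.2a to GRCm38/mm10, per the submitters' processing notes; no source used here names the counting tool or the annotation. The authors deposited raw counts for 48709 gene features and 92 spike-in features, and a signal table of scaled CPM, which was not used beyond pairing identifiers with symbols. Symbols came from that table for 23380 features and from GENCODE for 25049, and 280 had none. Spike-ins and a filtered copy of the count table were left out.

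Counts were filtered with filterByExpr (18191 genes kept), scaled by TMM (factors 0.988 to 1.007 in epithelium and 1.075 to 1.087 in mesenchyme) and tested with edgeR 4.0.16's quasi-likelihood test on all 16 libraries in R 4.3.3, with Benjamini-Hochberg adjustment over all genes tested. A gene was called at an adjusted p under 0.05. CPM are TMM-scaled counts per 1000000, the gland difference is the interaction term, and low-count folds use a floor of 3 counts over a group with exact 95% Poisson intervals, which cover counting error only. limma 3.58.1, DESeq2 1.42.0, other scalings and filters, a replicate block and leaving out each library were alternatives. The fit was tested on simulated data. No 2 libraries agreed within sampling noise (chi-square per gene 10.5 to 55.7).

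The comparison, the gene lists and the families were chosen with earlier results of these data known. Genes were named by rule: the 12 largest changes in each direction with at least 10 CPM and no overlap, up to 4 called genes per list role and direction, the ligands, receptors, laminins, collagen IV chains and integrins listed, 3 per family, and 6 in each direction for the gland difference. Of 399 genes named, 48 fall outside it and were chosen after their values were seen. A few genes that the rule names are not reported here.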

Additional observations from a re-analysis of the deposited data

Results flagged for a closer look

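Among the genes named above, a library was taken as standing apart where its gap to the nearest of the other 3 libraries of its layer passed Dixon's 95% critical value for 4 values. Chance passes it in about 1 in 20 groups of normally distributed values, which CPM near 0 are not. A gene with counts in 1 library and none in the other 3 always passes, as Bdnf did at 0.106 CPM. The number of passes can thus not be set against that rate. The critical value was passed in 78 of the 798 groups of 4 looked at, 27 times by epithelial replicate 3 and 25 times by mesenchymal replicate 4. The values of those libraries follow, in CPM. The cause was not tested.

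In epithelial replicate 1, Gata6 at 0.718 CPM stood above the other 3 libraries of the epithelium. In epithelial replicate 2, Chat at 0.0403, Emcn at 0.0403, Rgs5 at 22.3 and Rpl39l at 0.0403 CPM stood above the other 3 libraries of the epithelium. Adamts1 at 11.8 and Timp1 at 0.846 CPM stood below them. In epithelial replicate 3, Bdnf at 0.106, Bmp3 at 2.65, Cdh19 at 0.0530, Dcn at 19.1, Dlx2 at 1.54, Epha3 at 20.03 and Esrp2 at 81.8 CPM stood above the other 3 libraries of the epithelium. Fgf5 at 0.0530, Fn1 at 132, Fzd3 at 99.99, Gli1 at 2.49, Klhl4 at 0.106, Krt5 at 223 and Lgr5 at 6.68 CPM likewise stood above them. Meis2 at 268, Npnt at 144, Ntn1 at 34.5, Rspo2 at 0.0530, Rspo3 at 0.848, Sfrp2 at 18.4 and Sox2 at 20.4 CPM likewise stood above them. Tbx18 at 0.848, Tbx2 at 5.67, Tubb3 at 1.70, Twist1 at 1.70, Wnt2 at 3.18 and Wnt9b at 4.82 CPM likewise stood above them. In epithelial replicate 4, Egr1 at 1208, Itgav at 168, Lama1 at 87.8, Runx2 at 26.6 and Spry1 at 410.4 CPM stood above the other 3 libraries of the epithelium. Elf5 at 29.4 CPM stood below them.

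In mesenchymal replicate 1, Flrt3 at 291, Ier3 at 17.1 and Wnt3 at 0.0510 CPM stood above the other 3 libraries of the mesenchyme. In mesenchymal replicate 2, Ddx3y at 184, Fgf5 at 2.00 and Tmprss2 at 0.0499 CPM stood above the other 3 libraries of the mesenchyme. Foxa1 at 0 CPM stood below them. In mesenchymal replicate 3, Crb3 at 0.0516, Foxe1 at 0.567, Krt4 at 0.103, Prph at 0.567, Rxfp1 at 1.86 and Tubb3 at 42.6 CPM stood above the other 3 libraries of the mesenchyme. In mesenchymal replicate 4, Agrn at 125, Aldh1a2 at 439, Bmp4 at 45.7, Btbd7 at 58.8, Col9a1 at 29.5, Dll4 at 15.4 and Eln at 154 CPM stood above the other 3 libraries of the mesenchyme. Fgfbp1 at 0.109, Frem1 at 34.4, Grhl3 at 0.544, Id2 at 138, Igf1 at 1006, Igfbp4 at 951 and Klhl4 at 81.2 CPM likewise stood above them. Krt5 at 0.435, Lama1 at 90.4, Lgr5 at 126, Lpo at 0.0544, Robo4 at 38.8, Rspo3 at 6.85 and Wnt11 at 25.5 CPM likewise stood above them. Wnt5a at 32.8 and Wnt5b at 25.7 CPM likewise stood above them. Adamts1 at 877 and Col4a5 at 45.1 CPM stood below them.

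The difference between epithelium and mesenchyme itself differed between the glands by more than 2-fold in 87 of the named genes (edgeR's test against 2-fold on the interaction, adjusted p under 0.05). The values are submandibular minus parotid, on the log2 scale. In 17 of these genes at least 1 of the 4 groups averaged under 0.1 CPM, so that the fitted value depends on the prior count and its size is uncertain. The difference was more positive in the submandibular gland for 54 genes. In order of size these were Areg 13.10, Rxfp1 12.97, Krt4 11.81, Gabrp 11.36, Scel 11.01, Tlx1 10.46, Hoxc5 8.49, Bmp3 8.18 and Ereg 7.54. Fmod had a difference of 7.42, and Btc 7.24, Tbx1 6.98, Dkk1 6.96, Krt5 6.67, Krt6a 6.45, Col14a1 6.08, Foxa1 5.92 and Fgfr3 5.75 came after it. Met had a difference of 5.62, and Lama3 5.28, Pcdh7 4.92, Dsc2 4.92, Sema3c 4.89, Grhl3 4.79, Wnt7b 4.68, Sostdc1 4.61 and Nrg1 4.60 came after it. Rgs5 had a difference of 4.56, and Wnt4 4.55, Krt19 4.47, Barx1 4.4, Mgp 4.13, Id1 4.13, Ackr3 4.07, Myh3 3.85 and Npnt 3.58 came after it. Dlk1 had a difference of 3.55, and Sox9 3.46, Id3 3.03, Egfr 2.90, Jag1 2.87, Frem2 2.82, Kitl 2.74, Fras1 2.72 and Fgf9 2.69 came after it. Sema3d had a difference of 2.69, and Hpse 2.5, Ntn1 2.40, Pdgfc 2.24, Epha1 2.24, Slc12a2 2.13, Lfng 2.08, Notch2 1.97 and Hes1 1.55 came after it. It was more negative in the submandibular gland for 33 genes. In order of size these were Kcnj12 -8.89, Prlr -8.80, Acan -8.73, Fhod3 -6.83, Gpat3 -6.81, Col4a6 -5.33, Emcn -4.90, Rbm47 -4.89 and Edar -4.52. Adamts18 had a difference of -4.17, and Rdh10 -4.06, Gdnf -3.91, Slc2a3 -3.73, Col4a5 -3.46, Phlda2 -3.38, Osr1 -3.23, Fgf7 -3.16 and Bmp7 -3.09 came after it. Tbx2 had a difference of -3.08, and Twist2 -3.03, Lama1 -2.99, Fabp7 -2.95, Igfbp7 -2.80, Hic1 -2.73, Psma8 -2.21, Adamts1 -1.92 and Axin2 -1.89 came after it. Fzd1 had a difference of -1.86, and Lamb1 -1.83, Gli3 -1.80, Peg3 -1.46, Cdkn1c -1.46 and Meis2 -1.42 came after it.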

How the results depend on the processing

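No direction was reversed among calls under any alternative run. With edgeR's test against 1.5-fold in place of no change, 7640 genes were called, 3494 of them higher in epithelium, and the NADH dehydrogenase and proteasome families held 8 and 15 higher members, against 34 and 37. Other scalings, filters and tools gave 11188 to 12725 calls, and 3141 to 4444 for the gland difference. Scaling by library size alone moved the median log2 fold change by -0.117, and 43.6% of calls were then higher in epithelium, against 49.8%. Leaving out 1 library gave 11460 to 11770 calls, with 5365 to 5682 higher, 5939 to 6301 lower, 2695 to 2959 higher and 3990 to 4177 lower by at least 2-fold, 3210 to 3677 for the gland difference, and 617 to 634 called list members. The submandibular replicate numbers pair the libraries only in part, and the main fit held no block. The correlations of deviations between libraries of the same number were 0.372, 0.385, 0.081 and 0.066. For replicates 1 and 2 the library of the same number was the best match in both layers. Epithelial replicate 3 correlated best with mesenchymal replicate 4 (0.354). With a replicate block 12176 genes were called (12283 with the submandibular libraries alone), and 3871 for the gland difference. In the blocked fit of submandibular libraries alone, 5 erythroid genes were lower in place of 9, and Col4a1, Col4a2, Hspg2, Ccnd1 and Notch2 gained a call (adjusted p = 0.00957, 0.0269, 0.0142, 7.64e-05 and 0.00966); with all libraries blocked, Col4a2, Ccnd1 and Notch2 did (0.0283, 0.0297 and 0.0449).

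Several calls near the threshold rested on single libraries or settings. Rbm47 was lost without any library but mesenchymal replicate 4 (adjusted p up to 0.153), and with 3 scalings, a block or other filters. Ngfr was lost without epithelial replicate 1, 2 or 4 or mesenchymal replicate 2, 3 or 4 (up to 0.149), Nrg2 without epithelial replicate 2 or 3 or mesenchymal replicate 1, 3 or 4 (up to 0.0764), and Ier3 without epithelial replicate 4 or mesenchymal replicate 2, 3 or 4 (up to 0.229). Hoxb2 was lost without epithelial replicate 3 or mesenchymal replicate 2 or 4 (up to 0.17), Bnip3 without epithelial replicate 2 or 3 (0.0522 and 0.101), Sp7 without mesenchymal replicate 1 or 4 (0.0608 and 0.0659) and mt-Nd2 without epithelial replicate 1 (0.0825). Wnt2 was lost with the submandibular libraries alone (0.0676), and Atf3, Cyp26a1 and Hbb-y when these carried a block (0.0906, 0.0615 and 0.0754). Btbd7 and Itgb1, not called in the main fit, were called lower under both other filters and under a fit of the submandibular libraries alone. They were also called lower without some single libraries (Btbd7 epithelial replicate 1, 3 or 4 or mesenchymal replicate 2, Itgb1 epithelial replicate 1 or 2 or mesenchymal replicate 2). Genes not called in the full set gained a call in other settings, among them Ccnd1 without epithelial replicate 2 or mesenchymal replicate 4 (0.0288 and 0.0369), Notch2 under 3 scalings, 1 filter and both other tools (0.0192 to 0.0381) and without epithelial replicate 3 or mesenchymal replicate 1 (0.00424 and 0.0373), Lgr4 and Bmp3 without epithelial replicate 3 (0.00112 and 0.004) and Wnt5a without mesenchymal replicate 4 (0.0114). Tgfb2 and Egf were called lower in DESeq2 (0.0342 and 0.0427) and with scaling by library size alone (0.0328 and 0.0364). Called chemokines higher in epithelium numbered 2 rather than 4 without epithelial replicate 4 or mesenchymal replicate 2 or 3. The causes were not tested. At these depths 1 count in a library is about 0.05 CPM, so values under 0.1 CPM rest on a few reads.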
